A study of Homo sapiens with 8 samples.

Results

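The genes described here are 10 genes of the smooth muscle contractile programme and its regulators: ACTA2, TAGLN, CNN1, MYH11, MYLK, CALD1, LMOD1, DES, SRF and MYOCD. They were taken by gene symbol from a table of 60282 genes, and each symbol matched a single row. Of these 10 genes, 8 were among the 14073 genes that passed the filter on low counts (above 1 CPM in 4 or more libraries, CPM being counts scaled to a common library size) and were tested. MYH11 and MYOCD did not pass it and are given as counts.

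RNA sequencing was carried out on SK-UT-1 cells, an established human uterine leiomyosarcoma (uLMS) cell line grown in Eagle's Minimum Essential Medium with fetal bovine serum. The cells were treated for 48 h with 5 µM TP-472, an inhibitor of the bromodomain protein BRD9 that also binds BRD7, or with DMSO vehicle, and each group had 4 libraries of the same unmodified line. The study's methods speak of biological replicates for its experiments in general, but neither they nor the labels tie these 4 libraries of a group to separate cultures, so the p-values measure the spread between these libraries, which may be technical. A single tumour cell line grown in serum was the model, and normal myometrial cells were not sequenced.

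The vehicle libraries held between 32574672 and 36634103 estimated counts, and the TP-472 libraries between 36246277 and 38545464. At these depths 3 counts in a library corresponded to between 0.0776 and 0.0868 CPM. Vehicle replicate 3 stood apart from the rest: the median Spearman correlation of its gene counts with the other vehicle libraries was 0.914, against 0.988 to 0.989 for vehicle replicates 1, 2 and 4. Results that rest on it are given with and without that library.

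Smooth muscle cells contract when myosin light chain kinase, switched on by calcium and calmodulin, phosphorylates the light chains of smooth muscle myosin, which then pulls on actin filaments dressed with tropomyosin, caldesmon and calponin. Most genes of this apparatus carry CArG boxes, short A/T-rich sites bound by serum response factor (SRF). SRF works with coactivators: myocardin and the myocardin-related transcription factors (MRTFs) direct it to contractile and cytoskeletal genes, while ternary complex factors of the ELK family direct it to growth-factor-induced immediate early genes. In uterine smooth muscle tumours, loss of contractile markers such as desmin and smooth muscle myosin is a familiar feature of poor differentiation.

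Sequence around CArG boxes is printed for the members in which one was found, because this site joins the contractile genes to SRF. The promoter windows came from RefSeq (GRCh38.p14), covered 250 bases before to 50 bases after an annotated start, and were searched for the consensus CArG box on both strands. Windows were held for 6 of the 10 members (11 windows in all), and 2 members, MYLK and SRF, had a box. TAGLN, MYH11, DES and MYOCD had no window. The capitals mark the box, each sequence runs 5′ to 3′ on the strand of the gene, and positions count bases upstream of the start. The MYLK stretch, chr3:123620603-123620672 on the minus strand, lies within the gene before an internal start, runs from -124 to -55 and has its box at -94. The SRF stretch, chr6:43171209-43171268 on the plus strand, runs from -60 to -1 and has boxes at -30 and -10.
MYLK: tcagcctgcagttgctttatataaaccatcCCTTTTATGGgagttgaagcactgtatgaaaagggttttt
SRF: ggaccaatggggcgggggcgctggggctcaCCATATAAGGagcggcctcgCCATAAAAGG
A match in these windows is a description of the sequence and not a mapped binding site. Among all 35116 windows, 454 (1.29%) held a CArG box.

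Of the 8 members tested, 4 were called lower in TP-472-treated cells (DES, LMOD1, MYLK and TAGLN) and 0 were called higher, where called means an adjusted p below 0.05 with a fold change over 1.5 in edgeR's quasi-likelihood test. Over all genes tested, 26.9% were called in either direction, 14.9% lower and 12% higher. DES and LMOD1 passed the filter only through the vehicle libraries, where they were high, and MYH11, high after TP-472, did not pass it, so the count over the members tested is a description and not support for a direction. The median log2 fold change of the 8 members was -0.61 and that of all genes tested was -0.026. With no filter the median of all 10 members was -0.32 in edgeR and -0.31 in DESeq2, beside 0.12 and 0.13 over 33192 genes, where the fitted values of MYH11 and MYOCD depend on the prior count or the model. Without vehicle replicate 3, 5 members were called lower, against 13.4% of all genes called lower and 25.5% called in either direction, and the members' median was -0.62. Of the 8 tested members, 5 had values that did not overlap between the groups, all of them lower after TP-472, and MYH11, under the filter, was higher without overlap. Non-overlap occurred in 45.4% of all genes tested, and in 21.6% with TP-472 lower.

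**Figure D1:**
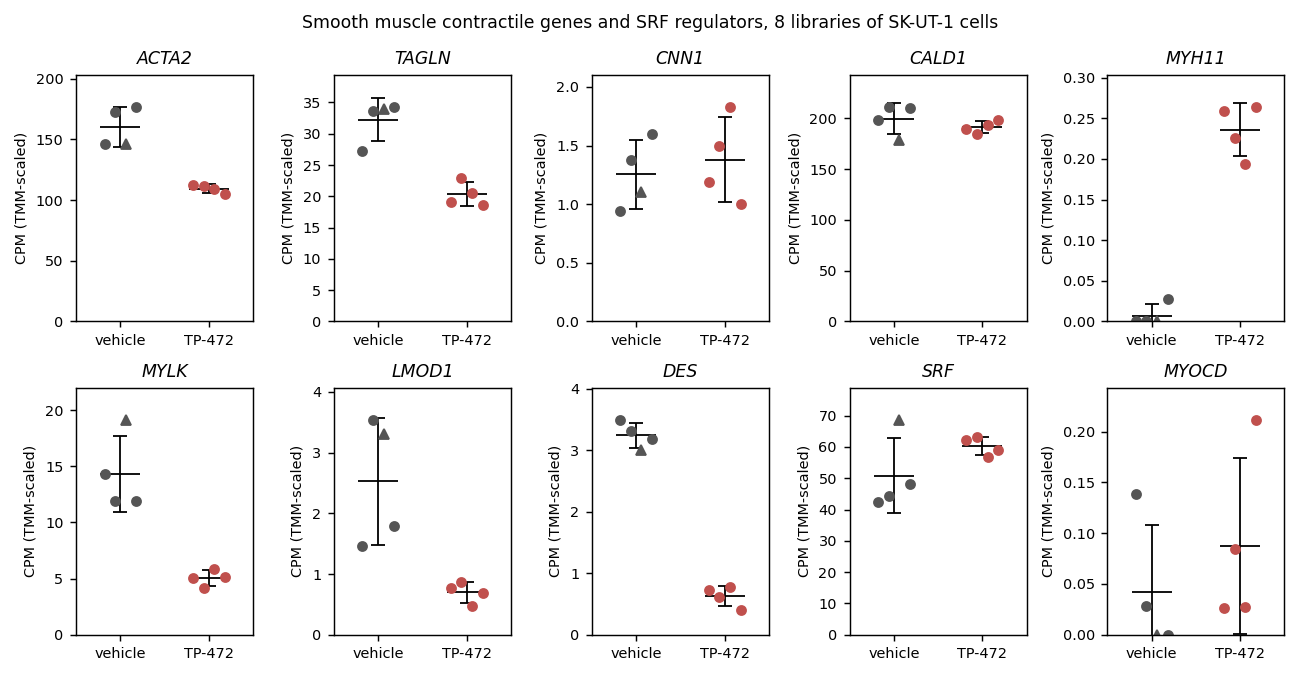
Level of each of the 10 members in every library, in CPM scaled by the trimmed mean of M values (TMM), with one panel per gene; points are libraries, triangles mark vehicle replicate 3, and bars show the mean ± SD of 4 libraries. DES, LMOD1, MYLK, TAGLN and ACTA2 lay lower in all 4 TP-472 libraries than in any vehicle library, and MYH11 lay higher.

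The most abundant members belonged to the thin filament. ACTA2 (chr10:88935074-88991339, minus strand) encodes smooth muscle alpha actin. Its levels in vehicle replicates 1 to 4 were 146, 173, 146 and 177 CPM, and in TP-472 replicates 1 to 4 they were 112, 112, 109 and 105 CPM. The groups did not overlap, and the TP-472 libraries lay close together. Vehicle averaged 160.3 ± 16.7 CPM and TP-472 averaged 109 ± 3.52 CPM (SD over 4 libraries). This corresponded to a log2 fold change of -0.55 (SE 0.10, edgeR adjusted p = 0.00426), which is 1.47-fold lower and under the fold limit for a call. Without vehicle replicate 3 the log2 fold change was -0.59 and ACTA2 was called. Its adjusted p ranged from 1.38e-04 to 0.0312 over 20 alternative settings.

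TAGLN (chr11:117199321-117204782, plus strand) encodes transgelin, an actin-binding protein used as an early marker of smooth muscle. Vehicle libraries held 27.2, 33.6, 33.96 and 34.3 CPM, and TP-472 libraries held 19.1, 23.0, 20.5 and 18.7 CPM. The groups did not overlap, and vehicle replicate 1 was low for its group. The log2 fold change was -0.67 (SE 0.12, edgeR adjusted p = 0.00397), or 1.59-fold lower. It was -0.64 without vehicle replicate 3, and with a correction for GC content it was -0.44, under the fold limit.

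CNN1 (chr19:11538717-11550323, plus strand) encodes calponin, which binds actin and slows the myosin ATPase. It was near the detection filter, at 0.942, 1.38, 1.10 and 1.60 CPM in vehicle and 1.19, 1.49, 1.83 and 1.00 CPM after TP-472. The groups overlapped, and the difference did not exceed the spread between replicates (log2 fold change 0.13, SE 0.25, edgeR adjusted p = 0.696). The sign of the fitted difference turned when TP-472 replicate 3 was left out, to -0.032.

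CALD1 (chr7:134744252-134970728, plus strand) encodes caldesmon, an actin-binding protein with a smooth muscle isoform and a widely expressed one that gene-level counts do not separate. Vehicle libraries held 198, 211, 178 and 210.2 CPM and TP-472 libraries 189.8, 185, 193 and 198 CPM. Vehicle replicate 3 was the lowest of the 8 libraries, and the groups overlapped. The log2 fold change was -0.059 (SE 0.096, edgeR adjusted p = 0.646), and -0.11 without vehicle replicate 3.

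LMOD1 (chr1:201896452-201946588, minus strand) encodes leiomodin, which nucleates actin filaments in smooth muscle. Its vehicle levels were 1.47, 3.54, 3.30 and 1.80 CPM, and its levels after TP-472 were 0.776, 0.874, 0.472 and 0.687 CPM. The vehicle libraries fell into a higher and a lower pair, and all 4 lay above the highest TP-472 library. No TP-472 library reached 1 CPM, so LMOD1 passed the filter only through the vehicle libraries. The log2 fold change was -1.84 (SE 0.34, edgeR adjusted p = 0.00401), or 3.58-fold lower, and it was -1.68 without vehicle replicate 3.

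Among the members, the myosin kinase gene MYLK was lower and the myosin gene MYH11 higher after TP-472. MYLK (chr3:123610049-123884331, minus strand) encodes myosin light chain kinase and, from its internal start, the kinase-free protein telokin, and both are counted under this gene. Vehicle libraries held 14.3, 11.9, 19.1 and 11.9 CPM, and TP-472 libraries 5.05, 4.17, 5.83 and 5.13 CPM. Even the lowest vehicle library was above the highest TP-472 library, with vehicle replicate 3 the highest of all. The log2 fold change was -1.503 (SE 0.19, edgeR adjusted p = 7.57e-04), or 2.83-fold lower, and it was -1.33 without vehicle replicate 3.

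MYH11 (chr16:15703172-15857033, minus strand) encodes the heavy chain of smooth muscle myosin, the most specific marker of the differentiated cell. Vehicle libraries held 0, 0, 0 and 1 counts, and TP-472 libraries held 10, 8, 7 and 10 counts. The gene was thus at or below 1 count in all vehicle libraries and low but present in all TP-472 libraries. Mean levels were 0.0070 ± 0.014 CPM and 0.236 ± 0.0325 CPM (SD, n = 4 each), and the ratio of summed counts scaled by library size was 33.3, with an exact 95% counting interval from 5.60 to 1354. A two-sided exact permutation test of the means gave p = 0.0286, unadjusted, the smallest that 70 assignments of 4 against 4 libraries allow. Among the 9607 genes under the filter with at least 10 counts, 12.8% were likewise higher without overlap after TP-472. The counts overlap on the genome with those of NDE1 on the opposite strand, with which MYH11 shares 765 exonic bases, and NDE1 was at 93.8 ± 35.6 CPM in vehicle and 73.5 ± 4.404 CPM after TP-472 (edgeR adjusted p = 0.239). The antisense gene AF001548.2 shares 298 exonic bases with MYH11 and had 57 counts in all libraries together.

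DES (chr2:219418377-219426739, plus strand) encodes desmin, the muscle intermediate filament protein, and entered the test only through its vehicle libraries. Vehicle libraries held 3.49, 3.31, 3.01 and 3.18 CPM. TP-472 libraries held 0.725, 0.620, 0.777 and 0.396 CPM. The vehicle libraries were tightly grouped, and each was above 3 CPM while no TP-472 library reached 1 CPM. The log2 fold change was -2.36 (SE 0.22, edgeR adjusted p = 1.89e-04), or 5.14-fold lower, and it was -2.40 without vehicle replicate 3.

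Neither regulator was called. SRF (chr6:43171299-43181507, plus strand), the DNA-binding factor itself, was at 42.3, 44.4, 68.6 and 48.1 CPM in vehicle and at 62.2, 63.1, 56.7 and 59.0 CPM after TP-472. Vehicle replicate 3 was above all other libraries, and the other 3 vehicle libraries were below all TP-472 libraries. With all libraries the log2 fold change was 0.25 (SE 0.16, edgeR adjusted p = 0.243). Without vehicle replicate 3 it was 0.42 with an adjusted p of 5.99e-04, under the fold limit for a call. Over 20 alternative settings the adjusted p ranged from 5.99e-04 to 0.456, and with the GC correction SRF was called higher (0.60).

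MYOCD (chr17:12665890-12768949, plus strand) encodes myocardin, the coactivator that drives the smooth muscle programme through SRF. It was close to undetected in both groups, with 5, 1, 0 and 0 counts in vehicle and 1, 3, 1 and 8 counts after TP-472. Single libraries, vehicle replicate 1 and TP-472 replicate 4, gave most of the counts of their group. The ratio of summed counts was 2.06, with an exact 95% counting interval from 0.732 to 6.62 that includes no difference (two-sided exact permutation p = 0.514).

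Levels were compared between members only per length, as mean CPM per kilobase of the longest coding transcript. TAGLN has 7 coding transcripts, MYLK 10 and SRF 1, and gene-level counts do not tell which were expressed. The order therefore depends on the length chosen, which the spread between libraries does not measure. In vehicle the order was ACTA2 (118.8), CALD1 (46.6), TAGLN (14.9), SRF (12.1), DES (1.44), MYLK (1.43), CNN1 (0.680), LMOD1 (0.636), MYOCD (0.00494) and MYH11 (0.00102). The library values of TAGLN and SRF overlapped, as did those of DES and MYLK, of CNN1 and LMOD1, and of MYOCD and MYH11, so those neighbours were not ordered beyond their spread. After TP-472 and by these lengths, SRF (14.3) stood above TAGLN (9.38) with no overlap of library values. CNN1 (0.747) and MYLK (0.503) then preceded DES (0.280) and LMOD1 (0.177), and MYH11 (0.0342) preceded MYOCD (0.0103). The library values of CNN1 and MYLK overlapped, as did those of DES and LMOD1, while those of MYH11 and MYOCD did not.

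The genes whose log2 CPM was most like that of a member over the 8 libraries are given as a description, since all share the same libraries and treatment difference. For DES these were ORAI3, LINC00654 and MTMR11 (Pearson r 0.993, 0.992 and 0.992). For MYLK they were NOD2, TPGS2 and BDH1 (0.997, 0.997 and 0.996), and for LMOD1 KRT15, CDK5RAP3 and SEMA4F (0.978, 0.962 and 0.961). ACTA2 was most like TRIM16L, CTSS and CDKN1B (0.986, 0.983 and 0.983), and TAGLN most like HLA-F, CTNNBIP1 and QARS1 (0.990, 0.990 and 0.987). CALD1 was most like GRIA2, LIMA1 and MIA3 (0.983, 0.977 and 0.973), SRF most like HMGA1, CSPG5 and COL7A1 (0.990, 0.987 and 0.985), and CNN1 most like YIPF3, TIMM17B and MRPL43 (0.962, 0.950 and 0.946). No member was among the 3 genes most like another.

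SRF acts through partners, of which 8 of 9 were tested: 1 was called higher, 2 lower and 5 were not called, with a median log2 fold change of -0.35 (-0.029 without vehicle replicate 3). FHL2, a LIM protein that binds SRF and competes with MRTFs, went from 28.3 ± 1.71 CPM to 44.9 ± 1.97 CPM (log2 fold change 0.67, SE 0.096, edgeR adjusted p = 0.00128). The coactivator MRTFB was at 76.4, 49.1, 80.3 and 49.2 CPM in vehicle and 29.5, 28.3, 27.4 and 43.9 CPM after TP-472 (log2 fold change -0.98, SE 0.22, edgeR adjusted p = 0.0100), with no overlap. SCAI, which represses MRTF-driven transcription, was also called lower, by 1.52-fold (log2 fold change -0.60), a call lost under the fold limit without vehicle replicate 1 (-0.51) or without vehicle replicate 4 (-0.57). Over all genes tested, 12% were called higher and 14.9% lower.

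MRTFA, the other MRTF, was at 22.2, 11.6, 61.1 and 14.2 CPM in vehicle and 15.7, 14.9, 13.5 and 15.9 CPM after TP-472. The vehicle mean rested on replicate 3: the log2 fold change was -0.86 (SE 0.47, edgeR adjusted p = 0.174) with it and -0.094 without it. The ternary complex factors ELK1 (-0.22), ELK3 (0.089) and ELK4 (-0.49) were not called, and neither was MICAL2 (0.15), an oxidoreductase that activates MRTFs through nuclear actin. The sign of ELK1 turned without vehicle replicate 3, to 0.037. ELK4 was called lower without that library (-0.60), without TP-472 replicate 4 (-0.63) and with the GC correction (-0.60), with an adjusted p from 0.00558 to 0.160 over 20 alternative settings. ABRA was at 0 counts in all libraries.

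**Figure D2:**
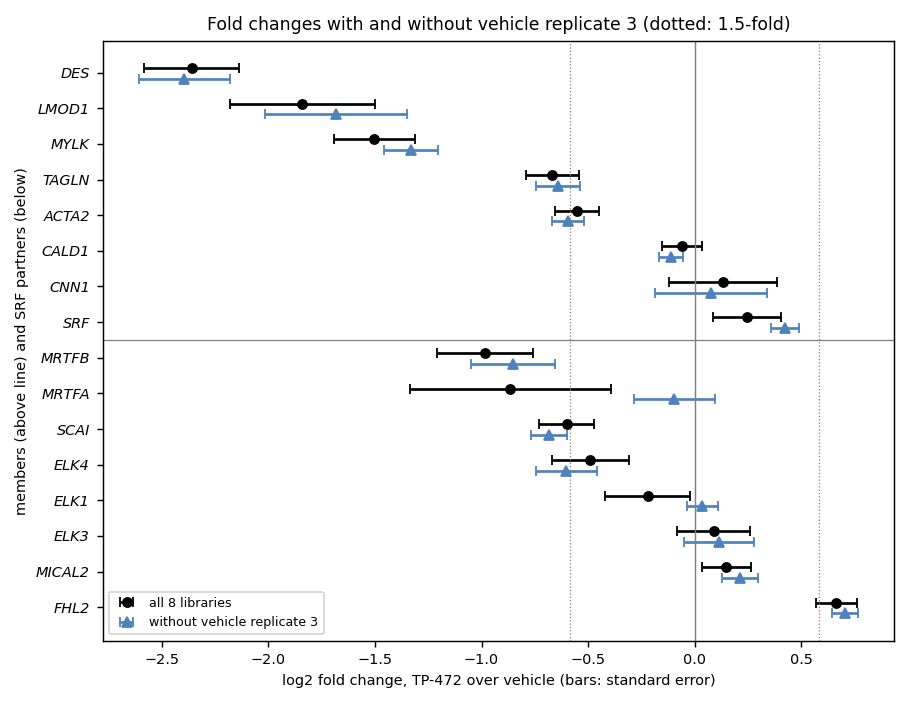
Log2 fold change (TP-472 over vehicle) of the 8 tested members, above the line, and the 8 tested SRF partners, below it, with all 8 libraries (circles) and without vehicle replicate 3 (triangles), where bars show the SE and dotted lines the 1.5-fold limit. DES, LMOD1 and MYLK lay well below the lower limit in both fits, TAGLN and ACTA2 lay near it, and MRTFA went from -0.86 to -0.094 when that library was left out.

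Of 23 other smooth muscle contractile genes, 15 were tested, 2 were called higher and 3 lower, shares near those of all genes (12% higher and 14.9% lower), with a median of -0.37 (-0.12 without vehicle replicate 3). With no filter the median over all 23 genes was 0.082 in edgeR and 0.092 in DESeq2, so its sign turned. That library was the highest of the vehicle libraries for 11 of the 15. TNS1, a tensin that links actin to adhesions, fell from 12.6 ± 7.58 to 2.98 ± 0.321 CPM (log2 fold change -2.08, SE 0.38, edgeR adjusted p = 0.00387). Without vehicle replicate 3 its log2 fold change was -1.60. The LIM-domain gene PDLIM7 (-1.44, or -0.86 without vehicle replicate 3, and not called without TP-472 replicate 3, edgeR adjusted p = 0.05001) and JPH2, which joins the sarcoplasmic reticulum to the plasma membrane (-1.43, or -1.13 without it), were called lower. The calls in the other direction were NEXN and PDLIM3. NEXN, an actin-binding protein, rose from 6.43 ± 1.55 to 13.3 ± 0.444 CPM (log2 fold change 1.04, or 0.90 without vehicle replicate 3). PDLIM3 passed the filter only with its TP-472 libraries and is given as a value at 0.943 ± 0.196 and 4.06 ± 0.487 CPM. SYNPO2 was under the filter, with 13 counts in vehicle and 68 after TP-472 and no overlap. ITGA8 (1 and 12 counts) was also higher without overlap, as were 12.8% of genes under the filter with at least 10 counts. HSPB6 (13 and 3 counts) was lower, and its groups overlapped.

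The list shown as non-muscle paralogues in the plot of fold changes by list holds relatives of contractile genes, mostly widely expressed forms and some striated muscle forms such as LMOD2 and MYLK2, and not all of them are paralogues of a member. Of 22 listed, 16 were tested, 2 were called higher (TPM3 and TAGLN3) and 3 lower (MYH9, MYH10 and MYH14), again near the shares of all genes, with a median of -0.037. Leaving out vehicle replicate 3 gave 1 called higher and 2 lower. The non-muscle myosin heavy chains MYH9 (-0.86), MYH10 (-0.77) and MYH14 (-1.40) had their highest value in vehicle replicate 3. Without that library MYH9 was -0.44 and no longer called, and MYH10 (-0.61) and MYH14 (-0.79) were called. The MYH14 call was lost when any one of the TP-472 libraries was left out (edgeR adjusted p = 0.0523 to 0.0637), and the MYH9 call was lost under 9 of 20 alternative settings, the replicate block among them. Non-muscle tropomyosin TPM3 was called higher (0.68) and was under the fold limit without it (0.55). Its call was also lost without vehicle replicate 1 and without TP-472 replicate 3. The TAGLN3 call was lost without either of those libraries, without TP-472 replicate 4, under the replicate block and with no filter. The cytoplasmic actins ACTB (-0.52, edgeR adjusted p = 0.230, or -0.058 without vehicle replicate 3) and ACTG1 (-0.026) were not called.

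Both arms of SRF targets were listed separately. Of 17 MRTF-SRF cytoskeletal targets, all tested, 3 were called higher and 4 lower, beside 12% and 14.9% of all genes, with a median of -0.39. Leaving out vehicle replicate 3 gave 2 called higher and 3 lower, beside 12% and 13.4% of all genes, with a median of -0.11. The number called higher was also 2 under the replicate block, with the GC correction, with no filter and without any one TP-472 library. The same number was called higher with upper-quartile or total-count scaling and without vehicle replicate 4. Filamin FLNA, which crosslinks actin, was at 1718, 1426, 3146 and 1478 CPM in vehicle and 866, 796, 748 and 749 CPM after TP-472 (log2 fold change -1.30, or -0.96 without vehicle replicate 3). TGFB1I1 (-1.73, or -1.05 without it), LPP (-0.98, or -1.06 without it) and talin TLN1 (-0.64, or -0.40 without it and then not called), which are adhesion proteins, were also called lower. The TLN1 call was lost under 8 of 20 alternative settings, among them the omission of any one TP-472 library. The matricellular gene CCN2 rose from 8.91 ± 1.47 to 42.5 ± 4.81 CPM (log2 fold change 2.25, SE 0.16, edgeR adjusted p = 4.49e-05), with no overlap. ANKRD1, which is among the 3 called higher and passed the filter only through the TP-472 libraries, went from 0.0780 ± 0.0749 to 2.16 ± 0.131 CPM.

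Of 10 TCF-SRF immediate early targets, 7 were tested, 2 were called higher and 0 lower, with a median of 0.56. Without vehicle replicate 3, 7 of 7 were called higher with a median of 0.73, against 12% of all genes called higher. Without any other single library, 1 of 7 was called, and with all libraries 6 of 7 were called with the GC correction and 3 of 7 by limma-voom. Vehicle replicate 3 held the highest vehicle value of 6 of the 7. MCL1, a survival protein, rose from 252 ± 48.7 to 418 ± 8.44 CPM (log2 fold change 0.73, edgeR adjusted p = 0.00601). EGR1, a zinc-finger transcription factor, was at 11.1, 7.44, 38.7 and 10.1 CPM in vehicle and 17.2, 14.3, 13.01 and 18.5 CPM after TP-472. Its log2 fold change was -0.094 (edgeR adjusted p = 0.890) and, without vehicle replicate 3, 0.73.

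Of 9 transcription factors of the smooth muscle lineage, 4 were tested and 0 were called by edgeR, with a median of -0.11 (0.22 over the 8 genes fitted with no filter). With no filter edgeR called 1 of the 8 higher, and DESeq2 also called 1 higher. Without vehicle replicate 3, 1 was called higher, the zinc-finger factor KLF4 (log2 fold change 0.65, against 0.45 with all libraries). GATA6, 1 of 5 under the filter, had 7 counts in vehicle and 62 after TP-472, with no overlap. Of genes under the filter with at least 10 counts, 12.8% were likewise higher without overlap.

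**Figure D3:**
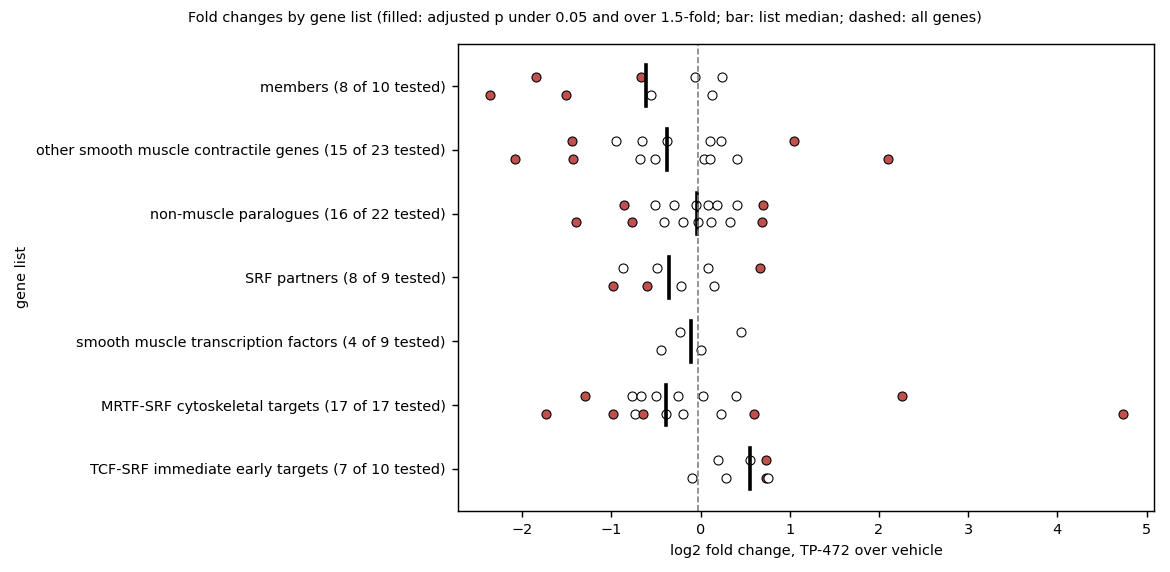
Log2 fold change (TP-472 over vehicle) of every tested gene in the member set and the 6 lists. Filled points were called, bars show the median of a list and the dashed line the median of all genes tested. Among genes that passed the filter, the members had the lowest median (-0.61) and the immediate early targets the highest (0.56), and with no filter the members' median (-0.32) was above those of the SRF partners (-0.36) and the MRTF-SRF targets (-0.37).

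**Figure D4:**
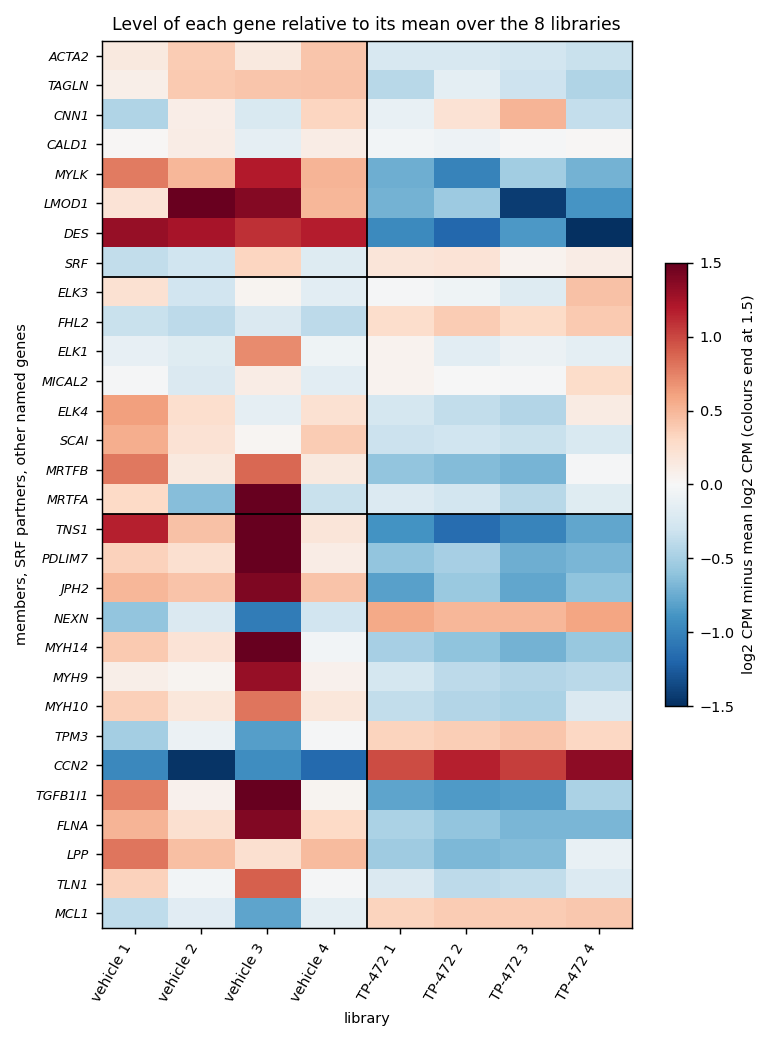
Log2 CPM of each tested member, SRF partner and other named list gene (rows, in 3 blocks) minus its mean over the 8 libraries (columns), with red above and blue below the mean and colours ending at 1.5. DES, LMOD1, MYLK, TAGLN and ACTA2 were above their mean in all vehicle libraries and below it in all TP-472 libraries, and vehicle replicate 3 was the highest library for SRF, MYLK, MRTFA, FLNA and MYH9.

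The CArG box was set beside the calls across all genes. Among 10205 tested genes with a promoter window, 11.5% were called higher and 14.5% lower. Among the 157 of them with a CArG box in a window, 19 (12.1%) were called higher and 28 (17.8%) lower, with a median log2 fold change of -0.048. In the 6 lists, 79 of 90 genes had a window and 14 had a box, among them FLNA, LPP and TGFB1I1, which were called lower, FHL2 and FILIP1L, which were called higher, and EGR1, which was not called. Without vehicle replicate 3, FILIP1L was under the fold limit (0.58) and EGR1 was called higher (0.73).

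The labelled cell type was checked against markers. Of 6 uterine smooth muscle markers, 2 were tested (DES and OXTR). The summed level of the 6 was 4.60 to 6.01 CPM in vehicle and 2.98 to 3.77 CPM after TP-472. DES was the most abundant in the 4 vehicle libraries and the oxytocin receptor OXTR (1.75 ± 0.520 CPM in vehicle, 2.44 ± 0.446 CPM after TP-472) in the 4 TP-472 libraries. The oestrogen receptor ESR1 had 1 count in all vehicle libraries together and 8 in TP-472 libraries, the progesterone receptor PGR 0 and 7, and enteric smooth muscle actin ACTG2 3 and 5. ESR1, PGR, ACTG2 and MYH11 were thus at or near 0 in vehicle, while DES, OXTR and the broader smooth muscle markers ACTA2 and TAGLN were detected in all libraries.

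Markers of other cell types were measured in the same libraries. Of 8 fibroblast markers, 6 were tested and 4 called lower, beside 14.9% of all genes, with a summed level of 1057 to 1222 CPM in vehicle and 280.7 to 313 CPM after TP-472. By limma-voom, under the replicate block and without any one TP-472 library, 3 were called lower. With all libraries the 4 were PDGFRB, COL1A1, COL1A2 and COL3A1, while THY1 (log2 fold change 0.25) and PDGFRA (0.20) were not called. COL1A2 (589 CPM in vehicle, 98.8 CPM after TP-472) and COL3A1 (458 and 149 CPM) held most of the sum. COL1A2 was the most abundant in vehicle and COL3A1 after TP-472, and the defining markers DCN and LUM had 1 count each over all libraries. Of 10 striated muscle markers, 2 were tested and 0 called by edgeR with all libraries, with sums of 3.77 to 6.34 and 4.99 to 6.004 CPM and TNNI3 the most abundant. Without vehicle replicate 3, 1 was called higher (MYH3, log2 fold change 1.11, against 0.52 with it). MYH3 held 1.14 to 2.03 CPM after TP-472, while vehicle libraries other than replicate 3 averaged 0.798 CPM. The fit without that library kept the genes that passed the filter on all 8 libraries. Among the libraries it used, MYH3 was above 1 CPM only in those of TP-472, so MYH3 is given as a value. MYOD1 had 62 counts in vehicle and 5 after TP-472 without overlap, as 5.91% of such low genes were lower, and MYOG had 1 and 2. ACTA1 (9 and 57 counts) and ACTC1 (17 and 39 counts) were higher after TP-472 without overlap, as were 12.8% of such low genes. Of 6 epithelial markers, 3 were tested, with KRT18 called higher, KRT19 called lower and sums of 17.7 to 23.4 and 21.1 to 27.3 CPM. With the GC correction, 2 were called higher and 0 lower. KRT18 was the most abundant after TP-472 and in vehicle replicate 2, and KRT19 in the other vehicle libraries. Under the filter, EPCAM had 103 and 36 counts and KRT7 42 and 88 counts, each without overlap. Of such low genes, 5.91% were lower and 12.8% higher without overlap. Of 4 endothelial markers, none was tested, with sums of 0.0831 to 0.144 and 0.414 to 0.687 CPM and VWF the most abundant in the vehicle libraries and in TP-472 replicates 3 and 4. PECAM1 was the most abundant in TP-472 replicates 1 and 2. Of 4 leukocyte markers, 1 was tested and not called (called higher with the GC correction), with sums of 7.15 to 8.51 and 9.75 to 12.9 CPM and CD68 the most abundant. PTPRC had 1 count over all libraries and CD3E 0. The part of these shifts in the members' differences was not tested. The members were measured in RNA from whole cultures, so fewer cells expressing a gene and less RNA per cell cannot be told apart.

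Counts shared between genes bear on some members. ACTA2 and CALD1 had estimated counts that were not whole in 8 of 8 libraries and TAGLN in 7, since reads that fit several transcripts are divided among them. ACTA2 shares 516 exonic bases with its antisense gene ACTA2-AS1, which was at 1.72 ± 0.615 CPM in vehicle and 2.06 ± 0.777 CPM after TP-472 (edgeR adjusted p = 0.567). It shares 380 with FAS, and TAGLN shares 446 with PCSK7, on opposite strands. FAS (0.22, edgeR adjusted p = 0.287) and PCSK7 (-0.36, adjusted p = 0.226) were not called. MYLK shares 133 bases with its antisense gene MYLK-AS1, which was at 3.18 ± 0.360 CPM in vehicle and 4.25 ± 0.586 CPM after TP-472 (edgeR adjusted p = 0.0752). The study's methods describe strand-specific libraries, while the labels name a TruSeq kit without mention of strand, and whether the counting used strand is not given in the sources used here.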

How the data were processed

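RNA from SK-UT-1 cells was sequenced in 4 vehicle and 4 TP-472 libraries, grouped by the labels. The authors mapped reads with Salmon 1.4.0 and summarised them per gene with tximport and GENCODE; the deposited values are estimated counts, not normalised, in GRCh38. Here the values were rounded, genes above 1 CPM in 4 or more libraries were kept, and edgeR 4.0.16 (TMM scaling, quasi-likelihood F test, R 4.3.3) was fitted over all genes with Benjamini-Hochberg adjustment. A gene was called at an adjusted p below 0.05 and a fold change over 1.5. CPM are TMM-scaled; the SE was derived from the F statistic. Genes under the filter were compared by exact permutation over libraries and by a 95% counting interval, which covers counting error only. No libraries were duplicates. Named genes were all members, all tested SRF partners, and for other lists called genes of at least 5 CPM without overlap, at most 6 a list; further genes are given as values, and low genes without overlap were picked after their values were seen. Members and lists were chosen with earlier results of these data known, and 1 further list is not reported here, nor counted in totals over lists. On simulated data for this comparison (14073 genes), 57 of 100 genes changed 2-fold and 93 of 100 changed 4-fold were called, with 15 false calls. The simulation left 13873 genes unchanged, changed the others equally in both directions and held no library that stood apart. These rates may therefore not hold for the real libraries. Alternatives used limma 3.58.1 and DESeq2 1.42.0, among others; gene positions came from GENCODE 29.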

Additional observations from a re-analysis of the deposited data

Results flagged for a closer look

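In groups of 4 libraries, the highest or lowest library was compared with the rest by Dixon's ratio at its 95% critical value. Over 64 groups of 32 genes, 10 libraries exceeded it, where chance gives about 1 in 20 groups; 6 of the 10 were vehicle replicate 3. Among the members, TAGLN was low in vehicle replicate 1 (27.2 CPM), and MYH11 was highest in vehicle replicate 4 (0.0281 CPM, a single count). Vehicle replicate 3 was high for PDLIM7 (166 CPM), JPH2 (36.2 CPM), MYH14 (65.6 CPM), MYH9 (2672 CPM), ELK1 (59.7 CPM) and FLNA (3146 CPM). TP-472 replicate 4 was high for MRTFB (43.9 CPM) and TGFB1I1 (13.3 CPM).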

How the results depend on the processing

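DES, LMOD1 and MYLK were called lower under every alternative in which they were tested. The fits that left out a library kept the genes that passed the filter on all 8 libraries. DES and LMOD1 had passed it only through the vehicle libraries, so their calls under these alternatives are a description and not support for a direction. With a filter of more than 5 CPM, 2 members were called, because DES and LMOD1 were no longer tested. ACTA2 was called in addition without vehicle replicate 1 or without vehicle replicate 3, so that leaving out each library gave 4 to 5 members called and, of the 6 lists, 14 (without TP-472 replicate 3) to 25 genes against 22. DESeq2 and edgeR with no filter added MYH11 as higher. The GC correction, chosen after seeing the data and possible for 99.3% of genes, added SRF as higher, dropped TAGLN (-0.44), and turned ELK1 (0.057) and ELK3 (-0.034). Leaving out each library gave ELK1 log2 fold changes from -0.31 to 0.037 (turned without vehicle replicate 3), ELK3 from -0.062 (without TP-472 replicate 4) to 0.19 and CNN1 from -0.032 (without TP-472 replicate 3) to 0.27. The cause was not tested. Over all genes, leaving out each library gave 2690 (without TP-472 replicate 3) to 4223 (without vehicle replicate 2) calls against 3789. There were 2672 calls above 5 CPM, 4256 above 0.5 CPM, 5598 with DESeq2, 5090 with no filter and 5102 by adjusted p alone. With the replicate number as a block, 3055 genes and 4 members were called; deviations of same-numbered libraries correlated between -0.177 and 0.116, so the numbers were not taken as pairs, and 0 of 4 vehicle and 1 of 4 TP-472 libraries correlated best with their own number. Depth limits MYOCD and MYH11, which were near or below 3 counts in vehicle libraries.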
